A study of Mus musculus with 6 samples.

Results

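Mouse genes of mitochondrial protein import and of the SLC25 carrier family were followed in B cells treated with a Cre protein that deletes Yy1. The genes were taken by symbol: every annotated array gene whose name starts with Timm, Tomm or Slc25a and a number, without Slc25a20. This gave 67 of the 19057 genes with a single name on the array, read by 113 of its 45281 probes. They comprised 7 Tomm genes of outer membrane import, 15 Timm genes of inner membrane import and 45 carrier genes. The rule itself reads names and no measured value, but the gene group was picked for description with earlier results of these data known.

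RNA came from splenic follicular B cells, a mature and recirculating kind, which had been picked with an antibody to CD23. All cells, mock included, were from C57BL/6 mice of genotype yy1 f/f, in which Cre sites flank part of Yy1, the gene of a zinc finger transcription factor. Each of 3 spleens supplied cells for a mock treatment and for TAT-CRE, which is Cre recombinase fused to a peptide that takes it into cells, and all cells were then grown for 72 hours with LPS, IL4, OPI and 20% FBS. Every mouse gave 1 mock and 1 TAT-CRE array, so there were 3 of each. Ages are not given in the labels, and TAT-CRE on cells with an unfloxed Yy1 was not analysed here, so exposure to the protein and the loss of Yy1 cannot be told apart.

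Most mitochondrial proteins are made in the cytosol and enter through the TOM complex, in which receptors such as Tomm22 and Tomm70a hand precursors to the Tomm40 channel. The small TIM chaperones escort hydrophobic precursors across the intermembrane space, TIM22 inserts carriers into the inner membrane, and TIM23 with its motor, anchored by Timm44, passes precursors with a targeting sequence towards the matrix. Most SLC25 carriers are inserted by TIM22 and exchange or transport particular metabolites, nucleotides or ions. B cells stimulated by lipopolysaccharide and interleukin 4 grow and divide, which draws on citrate, nucleotides and amino acids that these carriers move.

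Values are either deposited intensities, a linear brightness per probe, or log2 differences of background-corrected intensities, TAT-CRE minus mock, averaged over the 3 mice. A probe counted as above background on an array when it exceeded the 95th percentile of olfactory and vomeronasal receptor probes, and it was tested when this held on at least 3 of 6 arrays. Of the 113 member probes, 78 were tested (69.0%, against 42.4% of all probes), and these covered 50 of the 67 genes. The share tested was 91.7% of outer membrane probes, 85.7% of inner membrane probes and 58.9% of carrier probes. The inner membrane genes with no tested probe were Timm8a2 and Timm13, and the 15 such carrier genes were Slc25a2, Slc25a18, Slc25a21, Slc25a22, Slc25a27, Slc25a29, Slc25a31, Slc25a34, Slc25a35, Slc25a40, Slc25a41, Slc25a43, Slc25a48, Slc25a51 and Slc25a54. Tomm5 and Tomm20 were not analysed here.

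The targeted gene came first. The Yy1 probe read 455.0, 408.9 and 439.2 in mock and 153.2, 140.4 and 133.8 in TAT-CRE cells of mice 1, 2 and 3. All TAT-CRE arrays lay below all mock arrays, and none was above background. In deposited intensity the drop was at least 2.49-fold, and the fitted log2 difference came to -2.80 (limma, adjusted p = 1.91e-07). The probe was tested only because the mock arrays were above background, so this p-value is no separate support. The floxed part of Yy1 is not named in the labels, so the probe may or may not lie in it. Each array had 39.8% to 44.4% of its probes above background, and log2 values correlated across probes at 0.974 to 0.983 among mock, 0.989 to 0.990 among TAT-CRE and 0.964 to 0.975 between arrays of different groups. The median SD of a probe was 0.234 in mock and 0.154 in TAT-CRE arrays, and for the tested member probes 0.238 and 0.126.

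Few of these genes passed the test. With an adjusted p of 0.05 in limma as the threshold, 2 member probes rose and 4 fell of 78 tested, which is 7.69% against 13.7% of all 19217 tested probes. By direction, 2.56% of member probes rose against 6.56% of all probes, and 5.13% fell against 7.15%. All 6 were carrier probes, so 6 of 43 carrier probes passed (14.0%), a share near the background. None of the 35 import probes passed. The median log2 difference was -0.01 over the members and 0.01 over all tested probes. RNA was measured in bulk, so fewer cells of a type and less RNA per cell cannot be told apart in any of these values.

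**Figure D1:**
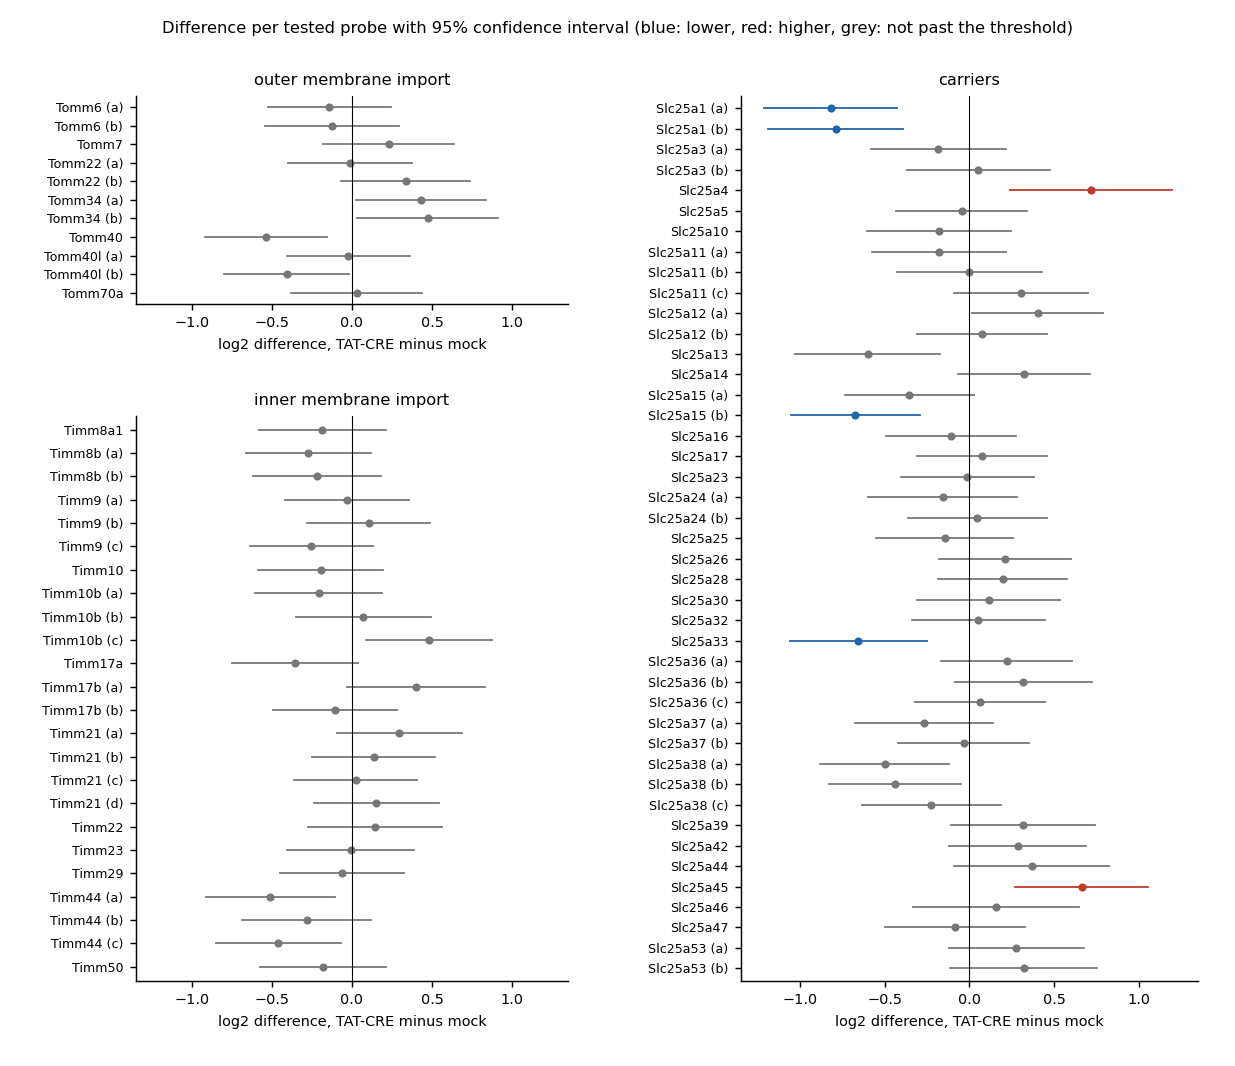
Log2 difference (TAT-CRE minus mock, 3 mice) of each of the 78 tested member probes with its 95% confidence interval, in 3 panels for outer membrane import, inner membrane import and carriers, where letters mark different probes of a gene. The 4 blue and 2 red carrier probes passed the threshold, and the grey probes, all 35 import probes among them, did not.

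**Figure D2:**
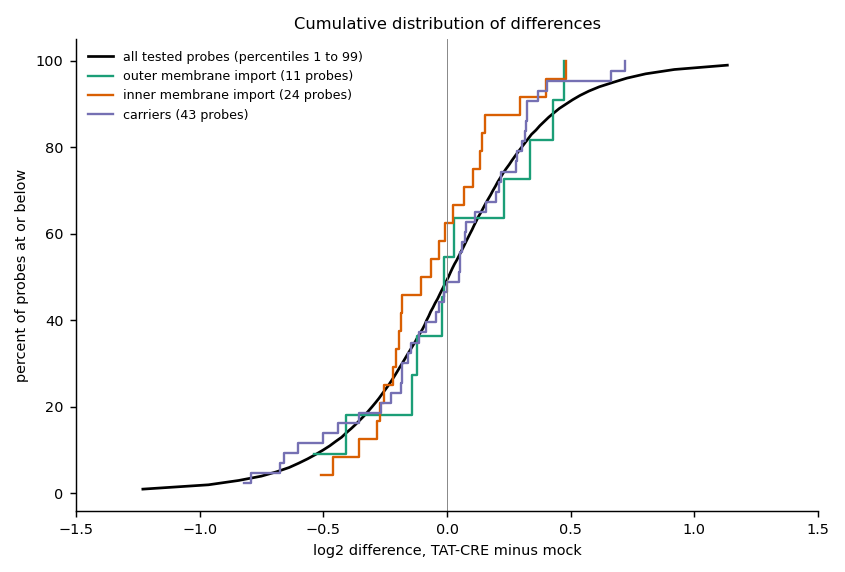
Percent of probes at or below each log2 difference (TAT-CRE minus mock), as lines for outer membrane import (11 probes), inner membrane import (24 probes), carriers (43 probes) and the percentiles of all 19217 tested probes. The lines of the 3 groups cross 50 percent close to that of all probes, with medians of -0.01, -0.09 and 0.05 against 0.01.

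The carriers that fell were Slc25a1, Slc25a15 and Slc25a33, and those that rose were Slc25a4 and Slc25a45. Of the 30 carrier genes with a tested probe, these 5 passed with at least 1 probe and 25 did not. On the same count over all tested probes, 1839 of 9943 gene names passed and 8104 did not. All unnamed probes counted as a single name there. The called differences were between -0.82 and 0.72 on the log2 scale, so none reached 2-fold, and in each all 3 mice moved the same way. With dim probes left in the test none of the 6 probes passed (limma adjusted p from 0.0557 to 0.177).

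Slc25a1 encodes the citrate carrier, which brings mitochondrial citrate to the cytosol for the synthesis of fatty acids and sterols. Both of its probes passed. Probe (a) read 489.2, 521.7 and 398.4 in mock and 307.1, 306.2 and 298.9 in TAT-CRE cells. Probe (b) read 2654, 2270 and 2196 in mock and 1262, 1451 and 1518 in TAT-CRE cells. On both probes every mock array was above every TAT-CRE array, and the TAT-CRE arrays lay closer together than the mock arrays on probe (a). Slc25a1 fell 1.77-fold by probe (a) (log2 difference -0.82 ± 0.19, SE, n = 3 pairs, limma adjusted p = 0.00702) and 1.73-fold by probe (b) (-0.79 ± 0.19, adjusted p = 0.00999). The differences in mice 1, 2 and 3 were -0.89, -1.01 and -0.57 by probe (a) and -1.13, -0.68 and -0.56 by probe (b). Without mouse 1 the second call was lost (adjusted p = 0.0787).

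Slc25a15 encodes the carrier that exchanges ornithine for citrulline between cytosol and matrix, a step of the urea cycle in liver. Its probe (b) read 305.8, 325.4 and 305.4 in mock and 237.7, 224.9 and 228.3 in TAT-CRE cells, and probe (a) read 1054, 1201 and 1033 in mock and 829.1, 902.8 and 893.6 in TAT-CRE cells. Neither probe's groups overlapped, and mock was the higher group on both. By probe (b) Slc25a15 fell 1.60-fold (-0.67 ± 0.18, limma adjusted p = 0.0199), while probe (a) differed by -0.36 and did not pass (95% confidence interval -0.74 to 0.03, adjusted p = 0.218). The call on probe (b) was lost without mouse 2 (adjusted p = 0.0625) or mouse 3 (0.103).

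Slc25a33 encodes a pyrimidine nucleotide carrier, which brings pyrimidine nucleotides into the matrix. Its probe read 1015, 967.7 and 761.2 in mock and 565.8, 630.0 and 633.1 in TAT-CRE cells, without overlap. Slc25a33 fell 1.58-fold (-0.66 ± 0.19, limma adjusted p = 0.0295), by -0.96, -0.70 and -0.31 in mice 1, 2 and 3. Without mouse 1 it did not pass (adjusted p = 0.181). Slc25a36, the other pyrimidine nucleotide carrier, had 3 tested probes with differences of 0.22, 0.32 and 0.06, and none passed (limma adjusted p from 0.307 to 0.867).

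Slc25a4 encodes ANT1, an adenine nucleotide translocator that exchanges matrix ATP for cytosolic ADP. Its probe read 953.5, 473.6 and 1025 in mock and 1198, 1186.0 and 1223 in TAT-CRE cells. The groups did not overlap, and mock of mouse 2 stood well below the other arrays. Slc25a4 rose 1.65-fold (0.72 ± 0.23, limma adjusted p = 0.0439), by 0.36, 1.52 and 0.28 in mice 1, 2 and 3. Without mouse 2 the difference was 0.32 and the call was lost (adjusted p = 0.412). It was lost too in a fit that ignored the pairing by mouse (adjusted p = 0.119). Its relative Slc25a5, or ANT2, read 28921 to 32372 in mock and 25845 to 32133 in TAT-CRE cells, with overlap, and differed by -0.05 (limma adjusted p = 0.902).

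Slc25a45 is a carrier family member. It read 1692.0, 1999.9 and 2087 in mock and 3108, 2731 and 3129 in TAT-CRE cells, so every TAT-CRE array was above every mock array. Slc25a45 rose 1.58-fold (0.66 ± 0.19, limma adjusted p = 0.0240), by 0.92, 0.47 and 0.61 in mice 1, 2 and 3. The call was lost without mouse 1 (adjusted p = 0.146) or mouse 3 (0.0997).

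**Figure D3:**
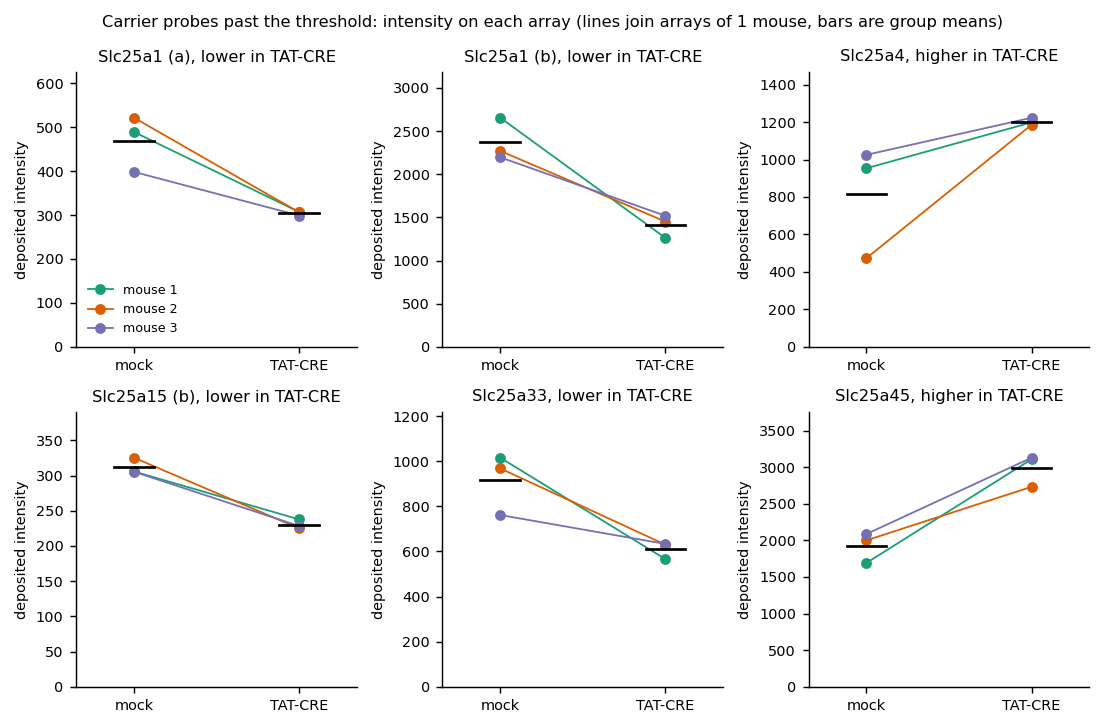
Deposited intensity (linear axis from 0) of the 6 carrier probes past the threshold on each array, with a line joining the mock and TAT-CRE arrays of each of the 3 mice and bars for group means. Every line of Slc25a1, Slc25a15 and Slc25a33 goes down and every line of Slc25a4 and Slc25a45 goes up, with mock of mouse 2 at 473.6 in the Slc25a4 panel.

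RefSeq promoter windows of build GRCm38.p6, from 250 bases before to 50 after a gene's start, were matched for 54 of the 67 genes (66 windows). They were searched on both strands for ATGGCGG and AANATGGC, forms of the sequence that the YY1 protein binds, which share the letters ATGGC and can overlap. ATGGCGG was in 4 of the 66 member windows (6.06%) and in 4.05% of all 32851 windows, and AANATGGC was in 4 member windows (6.06%) and 6.05% of all. Neither was in a window of the 5 genes that passed. Timm44 and Timm50 held both, overlapping, just after the start, and Slc25a42, Timm8b, Slc25a3 and Slc25a14 held 1 of them. A match is a description of letters and does not show binding.

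A further word, CACGTG, which reads the same on both strands and is bound by basic helix-loop-helix factors, was chosen after the sequences had been read. It was in 11 of 66 member windows (16.7%), of 10 genes, and in 7.15% of all windows. The 3 genes with a probe that fell held it, Slc25a15 in 1 of its 2 windows, and Slc25a4 and Slc25a45 did not. The other genes that held it had no probe that passed: Timm8a1, Timm9, Timm10, Slc25a13, Slc25a14, Slc25a36 and, with no tested probe, Slc25a31. Because the word was picked from these same windows, the counts only describe them. A link between CACGTG and the differences was not tested. The stretches below end 30 bases after the start and are printed 5′ to 3′ on the gene's strand. They show the carriers that fell (capitals mark CACGTG), Slc25a45 as a carrier that rose and holds none of these words, and the import genes with the overlapping YY1 words (capitals mark them).
Slc25a1 lies at chr16:17928190-17928469, minus strand, Slc25a15 at chr8:22398248-22398377, minus, Slc25a33 at chr4:149774238-149774367, minus, and Slc25a45 at chr19:5877722-5877851, plus.
Timm44 lies at chr8:4275876-4275965, minus strand, and Timm50 at chr7:28312017-28312106, minus.
Slc25a1: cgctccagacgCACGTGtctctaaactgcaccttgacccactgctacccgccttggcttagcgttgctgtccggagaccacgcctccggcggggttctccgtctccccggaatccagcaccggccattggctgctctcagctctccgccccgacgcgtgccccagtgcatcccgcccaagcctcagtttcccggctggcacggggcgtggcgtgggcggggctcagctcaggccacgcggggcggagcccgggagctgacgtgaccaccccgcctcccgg
Slc25a15: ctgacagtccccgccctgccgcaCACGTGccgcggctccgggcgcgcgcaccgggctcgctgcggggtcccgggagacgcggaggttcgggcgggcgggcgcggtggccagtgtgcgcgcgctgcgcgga
Slc25a33: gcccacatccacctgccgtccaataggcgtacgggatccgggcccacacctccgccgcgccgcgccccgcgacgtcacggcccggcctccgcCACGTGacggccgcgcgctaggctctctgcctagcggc
Slc25a45: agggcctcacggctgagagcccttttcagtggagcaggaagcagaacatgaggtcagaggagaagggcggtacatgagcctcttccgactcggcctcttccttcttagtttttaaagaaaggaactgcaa
Timm44: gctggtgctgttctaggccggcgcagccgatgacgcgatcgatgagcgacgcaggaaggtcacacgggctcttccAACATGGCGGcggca
Timm50: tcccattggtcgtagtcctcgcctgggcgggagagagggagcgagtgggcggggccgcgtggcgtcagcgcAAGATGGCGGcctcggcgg

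In outer membrane import, 0 of 11 tested probes passed in limma. At an unadjusted p of 0.05, 2 of the 11 were higher and 2 lower, where 27.3% of all tested probes were past that threshold in either direction. The median difference was -0.01, and 6 probes were below 0 and 5 above. Probes of the Tomm40 and Tomm40l channels and the small subunits had a median of -0.13 (6 probes), and those of the receptors with Tomm34 a median of 0.33 (5 probes). Of these, the 2 probes of Tomm34, which is not a receptor, differed by 0.43 and 0.47. Those of the receptors Tomm22 and Tomm70a differed by -0.01, 0.33 and 0.03.

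Tomm40, the channel itself, came nearest to the threshold. It read 302.4, 346.1 and 305.1 in mock and 236.7, 256.7 and 248.9 in TAT-CRE cells, with every mock array above every TAT-CRE array. It differed by -0.54 (limma adjusted p = 0.0576, 95% confidence interval -0.92 to -0.16), with -0.54, -0.63 and -0.44 in the 3 mice. It passed under 3 of the other settings tried, with array weights (adjusted p = 0.0492), with only probes above background on all arrays (0.0437) and with 1 probe per gene (0.0418). Its other probe was above background on no array. The related channel Tomm40l differed by -0.41 on a probe reading 507.6 to 619.7 in mock and 385.1 to 462.9 in TAT-CRE cells (adjusted p = 0.162), and by -0.02 on a probe with overlapping groups (1656 to 2121 and 1703 to 1970, adjusted p = 0.957).

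Tomm34, a cytosolic co-chaperone that meets precursors before import, differed by 0.43 and 0.47 on its probes (limma adjusted p = 0.157 and 0.151). Mouse 2 had the smallest difference on both, 0.11 and -0.12, and the groups overlapped on both. Without mouse 2, probe (b) differed by 0.77 and passed (adjusted p = 0.0112), and without mouse 1 it differed by 0.25 (adjusted p = 0.607). The central receptor Tomm22 differed by 0.33 on one probe (adjusted p = 0.277) and by -0.01 on the other. The receptor Tomm70a differed by 0.03, and the small subunits Tomm6 by -0.14 and -0.12 and Tomm7 by 0.23.

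In inner membrane import, 0 of 24 tested probes passed in limma, and at an unadjusted p of 0.05 there were 1 higher and 2 lower of the 24, against the same 27.3% of all tested probes. The median difference was -0.09, with 15 probes below 0 and 9 above. No alternative setting gave an inner membrane call.

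Timm44, which tethers the import motor to the TIM23 channel, had 3 tested probes, all below 0. Probe (a) read 775.7, 965.3 and 680.6 in mock and 616.1, 563.6 and 585.0 in TAT-CRE cells. The groups did not overlap there or on probe (c), and overlapped on probe (b). The differences were -0.51, -0.28 and -0.46 (limma adjusted p = 0.0892, 0.368 and 0.114). Mouse 2 gave the largest difference on each of the probes, -0.89 on probe (a) against -0.38 in mouse 1 and -0.26 in mouse 3.

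Timm17a and Timm17b are alternative members of the TIM23 channel. Timm17a read 3489 to 4929 in mock and 3063 to 3239 in TAT-CRE cells, without overlap, and differed by -0.36 (limma adjusted p = 0.232). Timm17b differed by 0.40 on a probe at 147.4 to 181.5 in mock and 175.8 to 204.4 in TAT-CRE cells (adjusted p = 0.220) and by -0.11 on the other, and neither was above background on all 6 arrays. The rest of TIM23 gave -0.01 for the channel Timm23, -0.18 for the receptor Timm50 and 0.30, 0.13, 0.02 and 0.15 for Timm21, a subunit that links TIM23 to the respiratory chain. Over the 12 TIM23 and motor probes the median was -0.06. In TIM22, the channel Timm22 differed by 0.14 and Timm29 by -0.06.

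Of the small TIM chaperones, Timm10b had the largest single value. Its probe (c) read 588.3, 695.4 and 779.4 in mock and 939.2, 848.0 and 967.5 in TAT-CRE cells, without overlap, and differed by 0.48 (limma adjusted p = 0.0991). Its other probes differed by -0.21 and 0.07 with overlapping groups, the widest disagreement of any member gene. Timm8a1 read 4825 to 7228 in mock and 5058 to 6053 in TAT-CRE cells and differed by -0.19. Timm8b differed by -0.27 and -0.22, with mock at 1362 to 1926 and TAT-CRE at 1308 to 1401 on probe (a) and 3506 to 4919 and 3570 to 3866 on probe (b). The groups of both genes overlapped. Timm9 differed by -0.03, 0.11 and -0.25 and Timm10 by -0.20, and the median over the 10 small TIM probes was -0.19.

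**Figure D4:**
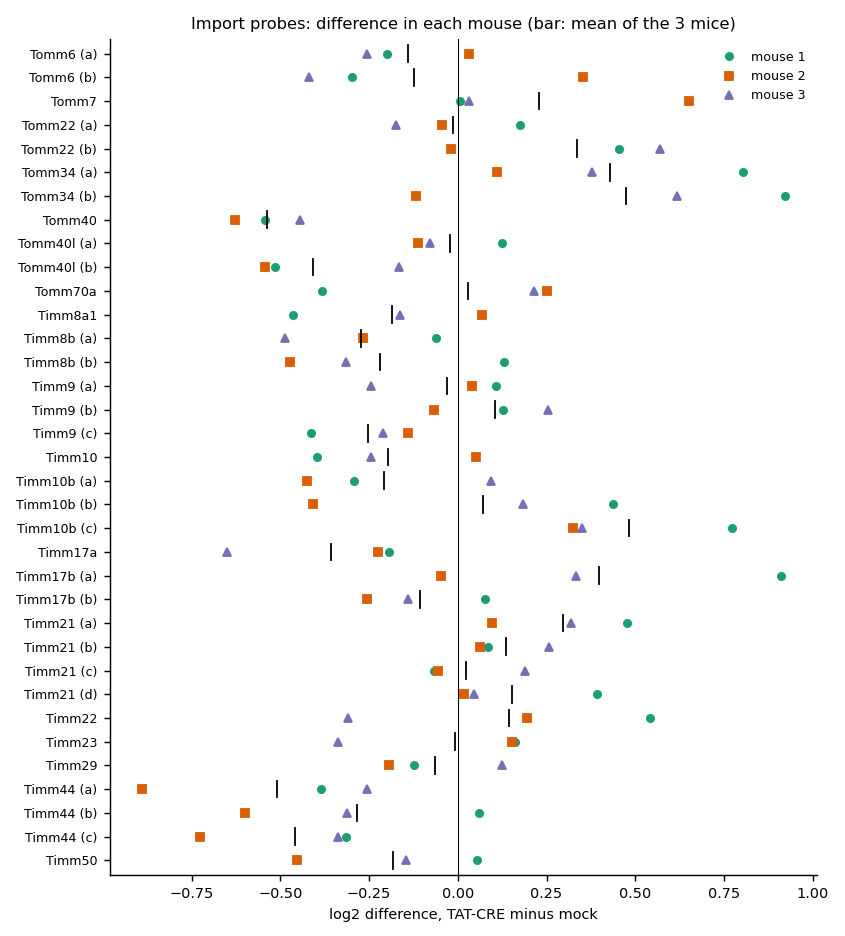
Log2 difference (TAT-CRE minus mock) of each of the 35 tested import probes in mouse 1, 2 and 3 (symbols) with their mean (bar), and letters for different probes of a gene. The 3 mice fall on both sides of 0 for most probes, while Tomm40 has all 3 mice between -0.63 and -0.44.

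The data bounded the measured difference of each tested import probe. The 95% confidence intervals of all 35 import probes lay between -0.92 and 0.92, so a 2-fold difference in either direction lay outside each of them. Of the 43 carrier probes, 36 had intervals within these 2-fold limits. The 7 others were the 6 probes that passed and that of Slc25a13. The bound leaves out Timm8a2 and Timm13, which had no tested probe. It is also less sure for RNA read near background, where intensities are compressed. Such probes were those of Timm22 (167.3 to 201.4 over all arrays) and Timm23 (191.6 to 235.1). So were both probes of Timm17b (147.4 to 204.4 and 155.8 to 194.0) and 1 of Tomm22 (189.2 to 225.3). The 3 mice had the same direction in 13 of 35 import probes and 16 of 43 carrier probes, against 46.9% of all tested probes. Groups that did not overlap were seen in 7 member probes with TAT-CRE above mock (8.97%, against 16.4% of all tested probes) and in 12 with TAT-CRE below (15.4%, against 15.5%).

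Of the carriers grouped by role, the amino acid carriers had the lowest median, -0.36 over 9 probes of 5 genes with 1 call, that of Slc25a15. The tested probes of Slc25a13, Slc25a15 and Slc25a38 lay below 0, and those of Slc25a12 and Slc25a44 above. Slc25a13, the aspartate and glutamate carrier known as citrin, read 472.9, 371.3 and 351.4 in mock and 265.8, 307.0 and 304.2 in TAT-CRE cells, without overlap. It differed by -0.60 (95% confidence interval -1.03 to -0.17, limma adjusted p = 0.0579), with mouse 1 at -1.14 and the others at -0.38 and -0.29. It passed in 5 of the other settings tried, among them a larger background offset (adjusted p = 0.0485) and the data without mouse 2 (0.0216). Without mouse 1 the difference was -0.33 (adjusted p = 0.445). Slc25a12, the other aspartate and glutamate carrier, differed by 0.40 on a probe at 175.3 to 197.1 in mock and 189.8 to 234.2 in TAT-CRE cells (adjusted p = 0.162) and by 0.08 on a probe at 314.2 to 410.3 and 351.0 to 389.3.

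Slc25a38, which imports glycine for haem synthesis, had 3 probes below 0. The differences were -0.50, -0.44 and -0.23 (limma adjusted p = 0.0769, 0.129 and 0.499), and only on probe (b) did the groups not overlap (501.9 to 585.4 in mock, 400.4 to 429.5 in TAT-CRE). The branched-chain amino acid carrier Slc25a44 differed by 0.37.

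In the di- and tricarboxylate group the calls were those of Slc25a1, and the dicarboxylate carrier Slc25a10 differed by -0.18. Slc25a11, the oxoglutarate carrier of the malate-aspartate shuttle, differed by -0.18, -0.00 and 0.30 on its 3 probes. Among carriers of adenine nucleotides, phosphate and ATP-Mg, Slc25a4 alone passed of 8 probes, and the phosphate carrier Slc25a3 differed by -0.18 and 0.05. The iron carriers, or mitoferrins, did not pass. Slc25a28 read 2706 to 3103 in mock and 2879 to 3682 in TAT-CRE cells (0.20), and Slc25a37 differed by -0.27 (184.0 to 202.2 and 161.8 to 189.4) and -0.03 (504.0 to 665.7 and 545.8 to 606.0), with overlap on each. The glutathione carrier Slc25a39 read 413.0 to 630.9 in mock and 448.5 to 663.3 in TAT-CRE cells (0.32), and no probe of its relative Slc25a40 was tested. Slc25a14, a relative of the uncoupling proteins, read 384.9 to 497.8 in mock and 516.4 to 517.2 in TAT-CRE cells, without overlap, and differed by 0.32 (limma adjusted p = 0.285). The 12 remaining tested carrier genes differed by -0.16 to 0.32 and did not pass. They were the ATP-Mg carriers Slc25a23, Slc25a24 and Slc25a25, the S-adenosylmethionine carrier Slc25a26, the folate carrier Slc25a32, the coenzyme A carrier Slc25a42, the peroxisomal Slc25a17, and Slc25a16, Slc25a30, Slc25a46, Slc25a47 and Slc25a53.

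**Figure D5:**
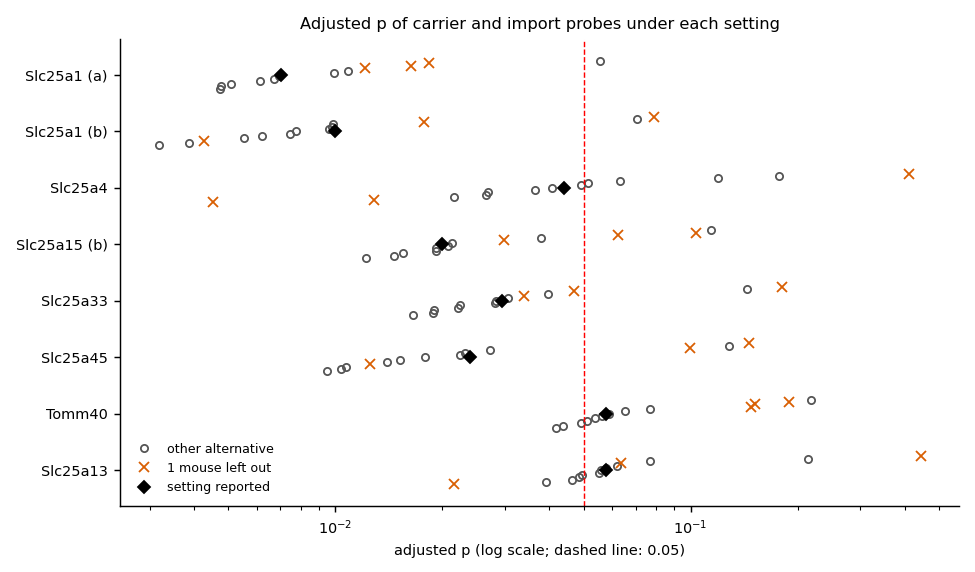
Adjusted p (log axis, dashed line at 0.05) of the 6 carrier probes that passed and of Tomm40 and Slc25a13, in the setting reported (diamonds), with 1 mouse left out (crosses) and under the other alternatives (circles). Each probe has symbols on both sides of the line, and Slc25a4 without mouse 2 is at 0.412.

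Agreement between probes of a gene was limited. Of 20 member genes with several tested probes, 13 had all their differences on the same side of 0 and 7 did not, and the median gap between the highest and lowest probe of a gene was 0.27, with a range from 0.02 to 0.69. A difference on 1 probe therefore describes that probe.

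Other genes of mitochondrial import gave 2 probes that rose and 2 that fell of 29 tested, with a median difference of -0.04. This was 6.90% in each direction, near the 6.56% and 7.15% of all tested probes, so the probes named next are single values and no result about the list. Oxa1l, which inserts proteins into the inner membrane from the matrix, read 819.0, 1164.1 and 636.6 in mock and 459.5, 498.9 and 509.4 in TAT-CRE cells. It fell 1.90-fold on this probe (-0.92, limma adjusted p = 0.00657), and its other probe differed by -0.60 without passing. Grpel1, the nucleotide exchange factor of the import motor, fell by 0.73 on one probe (adjusted p = 0.0182; without mouse 1, 0.147) and differed by -0.04 on the other. Mtx1, a metaxin of the outer membrane, rose by 0.77 on one probe (adjusted p = 0.0105), and its other probes differed by 0.27 and 0.02. Immp1l, of the inner membrane peptidase, read 162.7 to 166.9 in mock, below background on all arrays, and 188.6 to 212.6 in TAT-CRE cells. It was at least 1.15-fold higher (limma adjusted p = 0.0470). It was tested only because the TAT-CRE arrays were above background, so this p-value is no separate support. Its other probe was above background on no array. Of the further carriers and channels of the mitochondrial membranes, 1 of 9 tested probes passed (11.1%, against 13.7% of all tested probes). This too is a single value and no result about the list. The probe was that of Mtch1, a SLC25-related protein of the outer membrane, which rose by 0.65 (limma adjusted p = 0.0286). Its other probe differed by 0.31, and the call was lost without mouse 1 (0.116) or mouse 3 (0.209). With dim probes left in the test, the called probes of Oxa1l, Grpel1, Mtx1, Immp1l and Mtch1 all failed to pass (limma adjusted p from 0.0514 to 0.194).

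Cell type markers were read on the same arrays. Of 6 B cell markers on the array, Cd79b, Fcer2a, Cd22, Blnk and Ms4a1 were above background on all arrays, and Cr2 on none. Fcer2a, which encodes the CD23 used to pick the cells, fell by 0.58 on 1 of 3 probes (limma adjusted p = 0.0466), and the B cell adaptor Blnk fell by 0.67 on 1 of 2 (adjusted p = 0.0280). Other B cell genes lay the other way without passing: Cd79b, of the B cell receptor, differed by 0.52 and 0.50 (limma adjusted p = 0.0737 and 0.106) and Ms4a1, which encodes CD20, by 0.51 (0.0880), each above mock in all 3 mice. The B cell list summed to 28858 to 38960 in mock and 35647 to 39999 in TAT-CRE cells. The part of these genes in the carrier differences was not tested. The T cell genes Cd3d, Cd3e, Cd3g and Cd8a were above background on no array. A probe of Cd4 was above it on 4 of 6 arrays and differed by -0.04. The T cell list summed to 715.8 to 779.6 in mock and 740.3 to 776.2 in TAT-CRE cells. Of 7 monocyte and macrophage genes, Adgre1 was above background on all arrays and Mpo, Cd14, Fcgr1 and Itgam on none, with sums of 1105 to 1158 and 1139 to 1220. The erythroid genes Klf1 and Alas2 were above background on no array, while the globin gene Hba-a1 was above it on 5 (difference 0.53, limma adjusted p = 0.113) and Epor on 3 (-0.30, adjusted p = 0.329). That list of 4 genes summed to 651.4 to 677.1 and 663.9 to 768.8. Few probes of these 3 lists were tested: 1 of 8 for T cells, 2 of 15 for monocytes and macrophages and 2 of 4 for erythroid cells. Csf1r and Lyz2 had no tested probe. None of the tested probes passed.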

How the data were processed

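Expression was measured on 6 Illumina BeadChip arrays from biotin-labelled complementary RNA, and the submitters' processing notes name GenomeStudio 1.8. The deposited table gives a linear intensity per probe. The authors' intensities had been quantile normalized, since the largest gap between sorted columns is 2.1, and medians of 161.4 to 161.5 show that background had not been subtracted. The 12 columns of a second table could not be tied to samples through their names and were not used. Detection p-values were therefore replaced by the receptor-gene threshold (1501 probes).

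The intensities were background-corrected by normexp with an offset of 16, quantile normalized again and put on a log2 scale. TAT-CRE was compared with mock in limma 3.58.1 (R 4.3.3) by lmFit and eBayes with the mouse as a block, two-sided, and p-values were adjusted by Benjamini-Hochberg across the 19217 tested probes. Every probe was its own feature. "At least" folds set the brighter group against the lowest intensity above background. Group and mouse came from titles and source names, in which a number marks 1 mouse. Deviations from group means correlated within mice 1, 2 and 3 at 0.119, 0.0255 and 0.0539. Precision is limited by the number of arrays.

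Probes were named from GEO's platform annotation, with 1 gene for 34885 probes, several for 18 and none for 10378. All 67 member symbols matched RefSeq by Entrez identifier. The members and lists were chosen with earlier results of these data known. Named were Yy1, every member probe that passed and the other probes of its gene, the 4 members per group with the smallest p that did not pass, pairs of related genes, the remaining tested members by difference, and listed genes that passed. Alternatives covered background correction, normalization, dim-probe filter, mouse block, array weights, variance model, probes per gene and each replicate left out. The fit was first tested on simulated data. Figures were drawn with matplotlib 3.10.9.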

Additional observations from a re-analysis of the deposited data

How the results depend on the processing

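No member difference that passed changed sign under any alternative run. Over the 76 values of called member probes under alternatives, 60 still passed and 16 did not. Over 162 values of 13 named member probes that did not pass, 9 passed under an alternative. With no filter on dim probes, which tests all 45281 probes, 497 probes were higher and 585 lower (1260 and 1374 with the filter), and the members had 0 higher, 0 lower and 0 carrier calls. The adjusted p of the 6 carrier probes then lay between 0.0557 and 0.177. Without the replicate block, 1 member probe was higher and 4 were lower, since Slc25a4 was lost (adjusted p = 0.119). The block changed no other member call. Slc25a4 was also lost without background correction (0.0515) and with array weights (0.0634), each leaving 1 member higher. Outer membrane import had 1 call, Tomm40, with array weights, with probes above background on all arrays, and with the probe of highest mean per gene. That last choice gave 884 lower probes overall and moved the outer membrane median to 0.0287. Leaving out 1 mouse gave 803 to 1249 higher and 848 to 1349 lower probes, 1 to 2 members higher, 2 to 4 lower, 3 to 5 carrier calls and 0 to 1 outer membrane calls. Inner membrane import had 0 calls in all. Outside the members, the call was lost in 7 of 12 alternatives for Immp1l, in 5 for Fcer2a (without the block, adjusted p = 0.0531) and in 3 for Blnk. Under the mouse block, leaving out 1 array leaves out its mouse. Yy1 passed in all 12 alternatives that tested it, with its smallest difference, -1.61, without background correction. Except with no filter on dim probes, Yy1 entered these tests only through its mock arrays. Probes near background give compressed intensities, so differences of dim members depend on the correction.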
